A study of Mus musculus with 4 samples.

Results

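The genes described here are 10 members of the AP-1, Egr and immediate early gene set: Fos, Fosb, Fosl1, Fosl2, Jun, Junb, Jund, Egr1, Egr2 and Atf3. They were taken by symbol from the deposited table of 23997 gene symbols, and all 10 were among the 11481 genes that entered the test. The samples were cultured mesenchymal stem/progenitor cells (MSPC), fibroblast-like stromal cells grown from mouse bone marrow, on the C57BL/6 strain background. Asxl1 encodes a chromatin protein, partner of the histone H2A deubiquitinase BAP1, and the study compared 2 wild-type (WT) libraries with 2 Asxl1-/- libraries. The cells of both groups were between passages 5 and 10, in MesenCult medium with 20% supplement, and no added stimulus is named in the labels. The age and number of the animals, the way Asxl1 was deleted and whether the libraries of a group are separate cultures are not stated in the labels, so the p-values reflect the spread among these samples alone, which may be technical.

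AP-1 is a dimer of leucine zipper proteins of the Fos, Jun and Atf families that binds short palindromic DNA sites. Fos and Jun proteins pair with each other, whereas Fos proteins form no stable dimers among themselves. Egr1 and Egr2 are zinc finger factors that bind GC-rich sites. Most of these genes are immediate early genes: serum, growth factors, stress or handling raise their RNA within minutes, through MAP kinases and factors already present such as SRF and CREB, and the RNA decays soon after. In stromal and bone cells AP-1 is known for roles in proliferation, matrix protease genes and osteoblast differentiation.

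The sequences just before the annotated transcription starts were searched for motifs known from such genes. They are printed for some of the members that held a match, namely Fos, Fosb, Jun, Egr2 and Atf3. Fosl2 and Jund also held a match and are not printed. RefSeq (GRCm38.p6, the same assembly as mm10) gave a window of 250 bases before the start for 8 of the 10 members, all but Fosl1 and Egr1. Capitals mark the motifs searched, on both strands: TGACGT (the core of the cAMP response element), TGANTCA and TGANNTCA (AP-1 and related sites, a full cAMP response element matches both TGACGT and TGANNTCA), the CArG box bound by SRF, TATAAA, and GCGNGGGCG (the Egr site). The stretches are chr12:85473640-85473889 on the plus strand for Fos, chr7:19310052-19310295 on the minus strand for Fosb and chr4:95052223-95052472 on the minus strand for Jun, and 30 bases each of Egr2 (chr10:67537793-67537822, plus strand) and Atf3 (chr1:191183334-191183363, minus strand).
Fos: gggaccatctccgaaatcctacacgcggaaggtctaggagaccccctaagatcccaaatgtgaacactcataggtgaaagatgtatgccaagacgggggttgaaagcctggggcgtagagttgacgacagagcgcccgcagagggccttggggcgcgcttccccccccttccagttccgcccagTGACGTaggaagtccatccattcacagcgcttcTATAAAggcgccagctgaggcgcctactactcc
Fosb: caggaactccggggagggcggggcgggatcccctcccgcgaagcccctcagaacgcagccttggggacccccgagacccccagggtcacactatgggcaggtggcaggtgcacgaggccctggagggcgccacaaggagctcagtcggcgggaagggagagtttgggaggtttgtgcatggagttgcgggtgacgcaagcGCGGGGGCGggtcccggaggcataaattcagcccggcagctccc
Jun: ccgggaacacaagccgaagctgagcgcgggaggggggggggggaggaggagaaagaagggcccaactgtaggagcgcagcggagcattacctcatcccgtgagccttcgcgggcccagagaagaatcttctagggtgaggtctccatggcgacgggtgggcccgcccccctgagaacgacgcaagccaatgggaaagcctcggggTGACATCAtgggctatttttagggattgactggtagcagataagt
Egr2: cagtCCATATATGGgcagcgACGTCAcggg
Atf3: cctggaagctattaatagcattACGTCAgc

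In Fos, TGACGT lay 66 to 61 bases before the start and TATAAA 33 to 28 bases before it. In Jun, TGACATCA, a match to TGANNTCA, lay 45 to 38 bases before the start. Egr2 held a CArG box at 72 to 63 bases and TGACGT on the minus strand (ACGTCA as printed) at 56 to 51 bases, and Atf3 the latter at 8 to 3 bases. The 9-base Egr site GCGGGGGCG lay 50 to 42 bases before the start of Fosb and 79 to 71 bases before that of Fosl2. Jund held TGAAATCA at 61 to 54 bases, and Junb held none of the motifs in this window. Of 32851 windows of the same length from 27025 genes, TGACGT was in 6.47%, TGANTCA in 6.75%, TGANNTCA in 11.9%, the CArG box in 1.47%, TATAAA in 12.4% and GCGNGGGCG in 4.7%. Positions are counted from the RefSeq start used. This start lies upstream of the gene as GENCODE M21 has it for Junb and Jund and inside that gene for Fosb, Fosl2, Egr2 and Atf3, and the windows of Fosb, Fosl2 and Atf3 also hold exon bases of those genes. These matches describe the letters only.

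Levels are given as FPKM, fragments per unit of transcript length and of sequencing output, so they can be set side by side between genes. The read number of the libraries is unknown. The FPKM summed to between 497274 and 703662 per library, and 10946 to 11359 genes reached 1 FPKM. Asxl1 itself stood at 14.6 and 11.2 FPKM in WT replicates 1 and 2 and at 0.273 and 0.312 in Asxl1-/- replicates 1 and 2, as the labels say. Of 12 stromal markers Col1a1 lay between 1298 and 2043 FPKM and Pdgfrb between 49.2 and 135. The surface marker Eng stood at 10.7 and 0.912 FPKM in WT and 0.906 and 0.571 in Asxl1-/-, and Nt5e at 2.31 and 7.19 in WT and 0.493 and 0.507 in Asxl1-/-. Of the 12, groups did not overlap for 4 on the lower side (33.3%, beside 25.2% of all genes tested). For 2 they did not overlap on the higher side (beside 15.6%). No lymphocyte or neutrophil marker reached 1 FPKM, and of the endothelial markers Cdh5 alone did, at 7.11 FPKM in Asxl1-/- replicate 2. Macrophage markers set the replicates apart: 14 of 15 had higher levels in each replicate 2 than in either replicate 1. Summed without Fcer1g, the exception, these 14 stood at 7.46 and 570 FPKM in WT and 8.93 and 380 in Asxl1-/-. In bulk RNA, fewer cells of a type and less RNA per cell cannot be told apart.

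Among the Fos family, the transactivating members Fos and Fosb spread widely within each genotype. Fos (mm10, chromosome 12, 85473901 to 85477270, plus strand), the founding member of its family, stood at 283 and 14.4 FPKM in WT and at 63.7 and 217 in Asxl1-/-. The WT libraries were the highest and the lowest of the 4, 19.6-fold apart, and both Asxl1-/- libraries lay between them. The group means were 149 ± 190 and 140 ± 109 FPKM (SD, n = 2 each). Fosb (chromosome 7, 19302696 to 19310045, minus strand), its close relative that is likewise induced and short-lived, stood at 67.4 and 0.8 FPKM in WT and at 4.03 and 45.4 in Asxl1-/-. The same libraries were high and low as for Fos, with an 84.2-fold gap within WT and an 11.3-fold gap within Asxl1-/-. On the log2(FPKM + 1) scale the difference of Asxl1-/- from WT was 0.84 for Fos (standard error 1.52) and 0.46 for Fosb (standard error 2.04).

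The Fos-related antigens Fosl1 and Fosl2 lack the strong transactivation domain of Fos and turn over more slowly. Fosl1 (Fra-1; chromosome 19, 5447698 to 5455938, plus strand) stood at 16.8 and 11.3 FPKM in WT and at 10.0 and 0.322 in Asxl1-/-. One Asxl1-/- library was close to WT replicate 2 and the other lay 31.2-fold below the first, so the groups did not overlap although the spread inside Asxl1-/- exceeded the distance between the groups' nearest libraries. Its log2 difference was -1.95 (standard error 1.05), and the 95% interval ran from -4.73 to 0.82. Fosl2 (Fra-2; chromosome 5, 32136472 to 32157839, plus strand), known for a part in osteoblast and cartilage growth, was the steadiest of the 10, at 49.3 and 45.6 FPKM in WT and 32.3 and 43.6 in Asxl1-/-. All 4 libraries lay within 1.53-fold, the groups did not overlap, and the log2 difference was -0.33 with an interval from -1.02 to 0.36. The Fosl1 row overlaps Ccdc85b on the other strand in GENCODE M21, and since strandedness is not stated, reads of the overlap cannot be told apart.

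The Jun family repeated the pattern of Fos at smaller size. Jun (chromosome 4, 95049036 to 95052222, minus strand), the strongest activator of the family, stood at 128 and 15.1 FPKM in WT and at 29.6 and 32.5 in Asxl1-/-. The Asxl1-/- libraries were within 1.1-fold of each other, while the WT libraries enclosed them from above and below. Junb (chromosome 8, 84976909 to 84978748, minus strand), which can restrain Jun and is needed for normal bone formation, stood at 161 and 37.5 FPKM in WT and 42.4 and 101 in Asxl1-/-. Jund (chromosome 8, 70697739 to 70700616, plus strand), the member that resting cells also express, stood at 32.8 and 13.1 FPKM in WT and 17.6 and 22.3 in Asxl1-/-. For each of the 3 the highest library was WT replicate 1 and the lowest WT replicate 2, with gaps within WT of 8.48-fold, 4.28-fold and 2.51-fold. Antisense genes, Junos at Jun and Gm11175 at Jund, overlap these rows in GENCODE M21, and their reads cannot be told apart without strand.

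Egr1 was the most abundant of the 10 by its mean over the 4 libraries, 154 FPKM, against 145 for Fos. Egr1 (chromosome 18, 34861207 to 34864956, plus strand), a serum- and stretch-responsive factor, stood at 329 and 71.3 FPKM in WT and at 92.8 and 123 in Asxl1-/-. Again WT replicate 1 was far above the others and WT replicate 2 lowest. Egr2 (chromosome 10, 67537869 to 67542188, plus strand), its relative best known from Schwann cells and lymphocytes, was low, at 3.65 and 5.22 FPKM in WT and 2.43 and 5.40 in Asxl1-/-. Atf3 (chromosome 1, 191170297 to 191183333, minus strand), a stress-induced repressor that pairs with Jun proteins, stood at 1.82 and 3.15 FPKM in WT and at 0.862 and 3.31 in Asxl1-/-. For Egr2 and Atf3 both replicates 2 were above both replicates 1, which is also the arrangement of the macrophage markers; their part in these 2 genes was not tested.

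**Figure D1:**
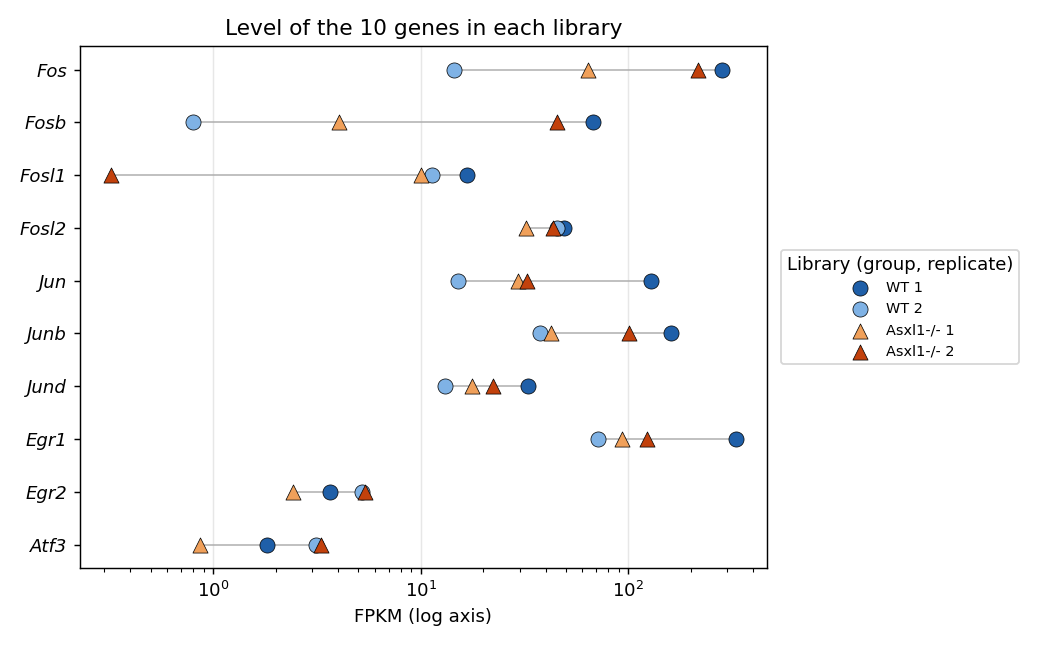
FPKM of each gene on a log axis, 1 point per library (circles WT, triangles Asxl1-/-), with a grey line from the lowest to the highest library. For Fos, Fosb, Jun, Junb, Jund and Egr1 the Asxl1-/- libraries sit between the WT libraries, while Fosl2 stays between 32.3 and 49.3 FPKM.

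No member differed between Asxl1-/- and WT beyond the spread between libraries. By limma 0 of the 10 passed a Benjamini-Hochberg adjusted p of 0.05, beside 0.0261% of all genes tested (3 of 11481), and 0 had an unadjusted p under 0.05, beside 7.92% of all genes. The adjusted p ran from 0.674 for Fosl1 to 0.981 for Jund. Asxl1, the deleted gene, did not pass this threshold either (log2 difference -3.41, limma adjusted p = 0.215). The authors' deposited Cuffdiff table marks it significant (q = 0.00836). A count of 0 by limma therefore does not show that genes are unchanged. On the log2(FPKM + 1) scale differences were negative for 8 members and positive for Fos and Fosb. For these the sign depends on the scale, since the mean FPKM of both was lower in Asxl1-/-. The means in WT and Asxl1-/- were 34.1 and 24.7 for Fosb, and 149 and 140 for Fos. The authors' deposited table gives a log2 fold change of 0.08 for Fos and -0.30 for Fosb. Its group values for Fos, 168 FPKM in WT and 177 in Asxl1-/-, are not these means. The sign of Fos thus also depends on which group values are used. The median difference of the 10 was -0.26, against -0.07 over all genes tested, and the 95% interval of all 10 spanned 0. The intervals ran from -3.17 to 4.86 for Fos and from -4.93 to 5.85 for Fosb, which leaves room for several-fold changes of these genes in either direction. The interval of Fosl2 was the narrowest. For 8 members the direction changed with 1 library left out, while Fosl1 and Fosl2 stayed lower in Asxl1-/- whichever library was left out. Without WT replicate 1 Jun stood at 0.99 and Egr1 at 0.58, and without WT replicate 2 they stood at -2.01 and -1.61.

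Only Fosl1 and Fosl2 had groups that did not overlap, both lower in Asxl1-/-: 2 of 10, beside 25.2% of all genes tested, and 0 of 10 were higher throughout, beside 15.6%. With WT replicate 2 left out 8 of 10 lay lower without overlap (45.3% of all genes), and with WT replicate 1 left out 6 of 10 lay higher (29.9% of all genes). In the authors' deposited table, none of the 10 is marked significant, against 0.939% of the 12881 genes it tested. Among the 10, the smallest p-value in the authors' deposited table is that of Jun, with group values of 81.1 FPKM in WT and 39.0 in Asxl1-/-, a log2 fold change of -1.06, p = 0.0574 and q = 0.723. The authors' deposited table gives Fosl1 a log2 fold change of -1.32 and Egr1 one of -0.75, both with q = 0.999.

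**Figure D2:**
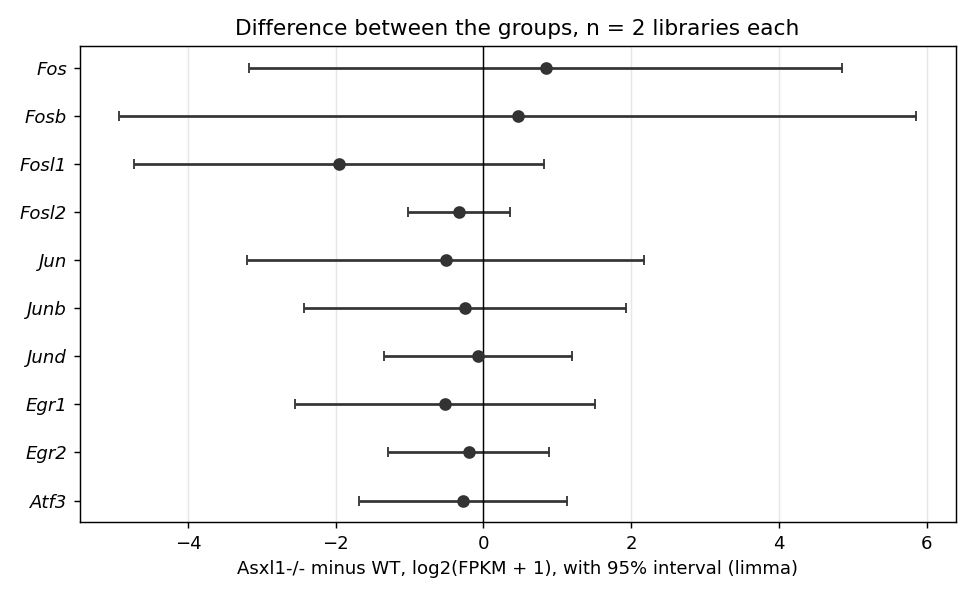
Difference of Asxl1-/- from WT on the log2(FPKM + 1) scale with its 95% interval from limma, 2 libraries per group. All 10 intervals cross 0; the widest is that of Fosb and the narrowest that of Fosl2.

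What the members shared was an order of libraries that cut across genotype. Fos, Fosb, Jun, Junb, Jund and Egr1 were all highest in WT replicate 1, then Asxl1-/- replicate 2, then Asxl1-/- replicate 1, and lowest in WT replicate 2. This order was singled out after the values were seen, so it carries no test. It held for 6 of 10 members, beside 4.89% of all genes tested (561 of 11481). The same 6 kept it after median ratio scaling (4.09% of all genes) and after quantile normalization (4.94%). Neighbours in the order were often close: Jun was 1.1-fold apart between the Asxl1-/- libraries, Egr1 1.33-fold and Jund 1.27-fold. Egr2 and Atf3 shared another order with each other, Asxl1-/- replicate 2, WT replicate 2, WT replicate 1, Asxl1-/- replicate 1.

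The differences within genotype were large against those of other genes. The WT libraries were at least 2 apart on the log2(FPKM + 1) scale for Fos, Fosb, Jun, Junb and Egr1, 5 of 10 members, beside 3.74% of all genes tested. The gap was 5.25 for Fosb and 4.20 for Fos, larger than in 99.8% and 99.6% of genes. Between the Asxl1-/- libraries Fosb and Fosl1 were that far apart, 2 of 10, beside 3.93% of all genes, and in opposite directions. Fosb was 3.20 higher in replicate 2 and Fosl1 3.06 higher in replicate 1. The median of the residual SD within groups was 1.16 for the members and 0.296 for all genes. Of 14 macrophage markers tested, 0 had the order shared by the 6 members, beside 4.89% of all genes tested. Of 12 stromal markers 1 had it (8.33%), Pdgfra, at 80.9 and 4.78 FPKM in WT and 58.8 and 63.0 in Asxl1-/-. Culture density at harvest and the time since the last medium change are not stated in the labels, apart from replating at 80 to 90% confluency. The part of cell content or culture state in the order of libraries was not tested.

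**Figure D3:**
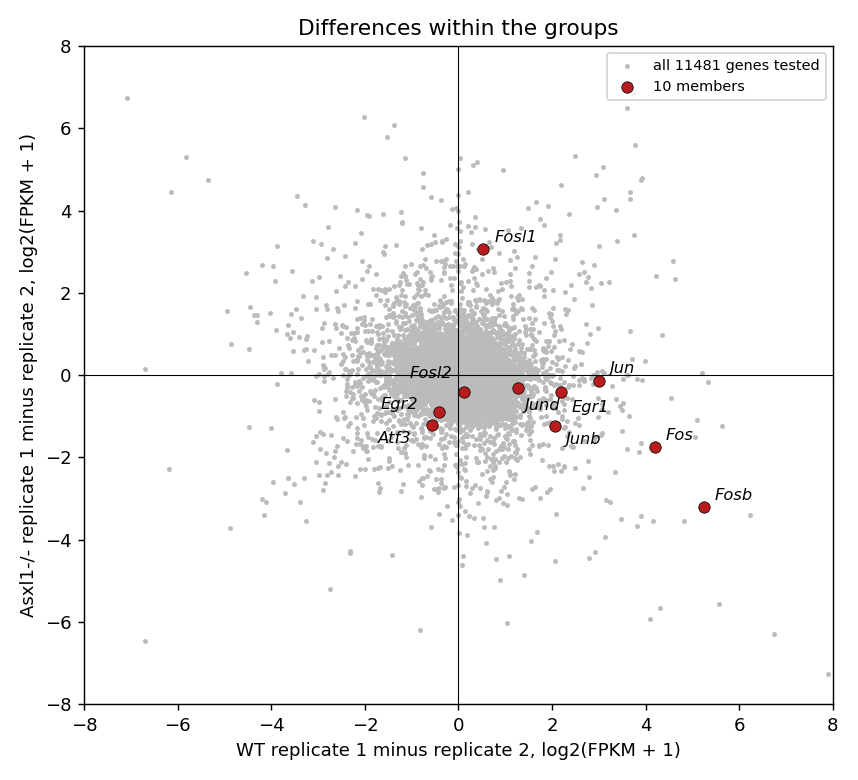
Difference between the libraries of one genotype on the log2(FPKM + 1) scale, WT on the horizontal and Asxl1-/- on the vertical axis, for all 11481 genes tested (grey, 19 of them beyond the axes) and the 10 members (red). Fosb and Fos lie far to the lower right, higher in WT replicate 1 and in Asxl1-/- replicate 2, while Fosl1 lies at the top.

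The make-up of the AP-1 transcripts differed between libraries along with their amount. The 4 Fos family genes summed to 416 and 72.1 FPKM in WT and to 110 and 307 in Asxl1-/-. Fos made up 67.9% of that sum in WT replicate 1, 57.9% in Asxl1-/- replicate 1 and 70.9% in Asxl1-/- replicate 2, but 20.0% in WT replicate 2. There Fosl2 was the main member at 63.2%, against 11.8% in WT replicate 1 and 29.3% and 14.2% in Asxl1-/-. Fosl1 held 15.7% in WT replicate 2 and 0.105% in Asxl1-/- replicate 2. The group means for the share of Fos were 44.0% ± 33.9 in WT and 64.4% ± 9.19 in Asxl1-/- (SD, n = 2 each), a difference within the spread of WT.

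The Jun family was steadier in make-up than in amount. Its 3 genes summed to 322 and 65.7 FPKM in WT and to 89.6 and 156 in Asxl1-/-. Junb was the largest part in every library, between 47.4% and 64.8%. Jun held 39.9% and 23.0% in WT and 33.0% and 20.9% in Asxl1-/-, and Jund between 10.2% and 19.9%. The summed Fos family exceeded the summed Jun family in every library, by a ratio between 1.1 and 1.97. With 2 libraries per group the smallest p of a two-sided exact permutation test is 0.333, so these shares carry no test.

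**Figure D4:**
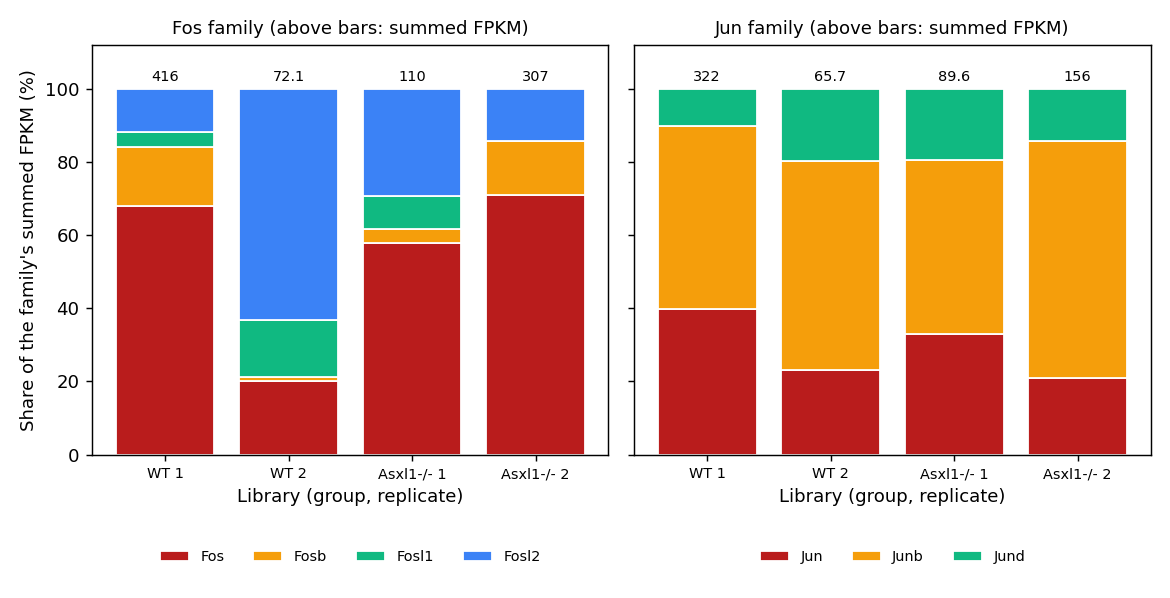
Share of each gene in the summed FPKM of the Fos family (left) and the Jun family (right) for each library, with the summed FPKM above each bar. WT replicate 2 stands out on the left, with Fosl2 at 63.2% and Fos at 20.0%, while Junb is the largest part of every bar on the right.

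Of the other immediate early and early response genes, 31 in the list, some had this library order and others had both Asxl1-/- libraries below WT. By limma 0 of the 29 tested passed the adjusted threshold. An unadjusted p under 0.05 was reached by 6, all lower in Asxl1-/-, where 5.41% of all genes tested were lower at that level. Groups did not overlap for 10 on the lower side (34.5%, beside 25.2% of all genes) and for 2 on the higher side (beside 15.6%). After median ratio scaling these shares of all genes were 20.8% and 20.1%. The genes of this list were not recounted under that scaling, so their counts cannot be set against these 2 shares. The list median was -0.13, against -0.07 over all genes. Arc, a neuronal activity gene, stood at 3.95 and 2.43 FPKM in WT and 0.117 and 0.21 in Asxl1-/- (log2 difference -1.83, limma adjusted p = 0.502). Plk3, a stress-response kinase, stood at 4.88 and 5.46 FPKM versus 2.25 and 2.61. Egr3, an Egr relative that growth factors also induce, stood at 9.01 and 6.06 FPKM in WT cells, and at 3.90 and 2.56 in Asxl1-/-. The matricellular gene Cyr61 (Ccn1) was at 383 FPKM in both WT libraries and at 217 and 244 in Asxl1-/-. The other genes with such a p were Nr4a2 and Myc, named after their values were seen. Each of these 6 had both Asxl1-/- libraries below both WT libraries. With 2 libraries per group this follows from choosing them by that p.

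The order of the 6 members was shared by 5 of these 29 genes (17.2%, beside 4.89% of all genes tested), named here after their values were seen: Nr4a1, Zfp36, Klf6, Sgk1 and Trib1. Zfp36, which encodes an RNA-binding protein that speeds the decay of early response transcripts, stood at 95.4 and 14.1 FPKM in WT and 19.0 and 59.5 in Asxl1-/-. Nr4a1, an inducible orphan nuclear receptor, stood at 37.9 and 11.8 FPKM in WT and 19.9 and 27.9 in Asxl1-/-. The kinase gene Sgk1 stood at 166 and 54.1 FPKM versus 61.5 and 107. WT replicate 1 was the highest library for 17 of the 29 genes and WT replicate 2 the lowest for 12. Ctgf (Ccn2) went against both, at 32.5 and 198 FPKM in WT and 533 and 179 in Asxl1-/-.

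**Figure D5:**
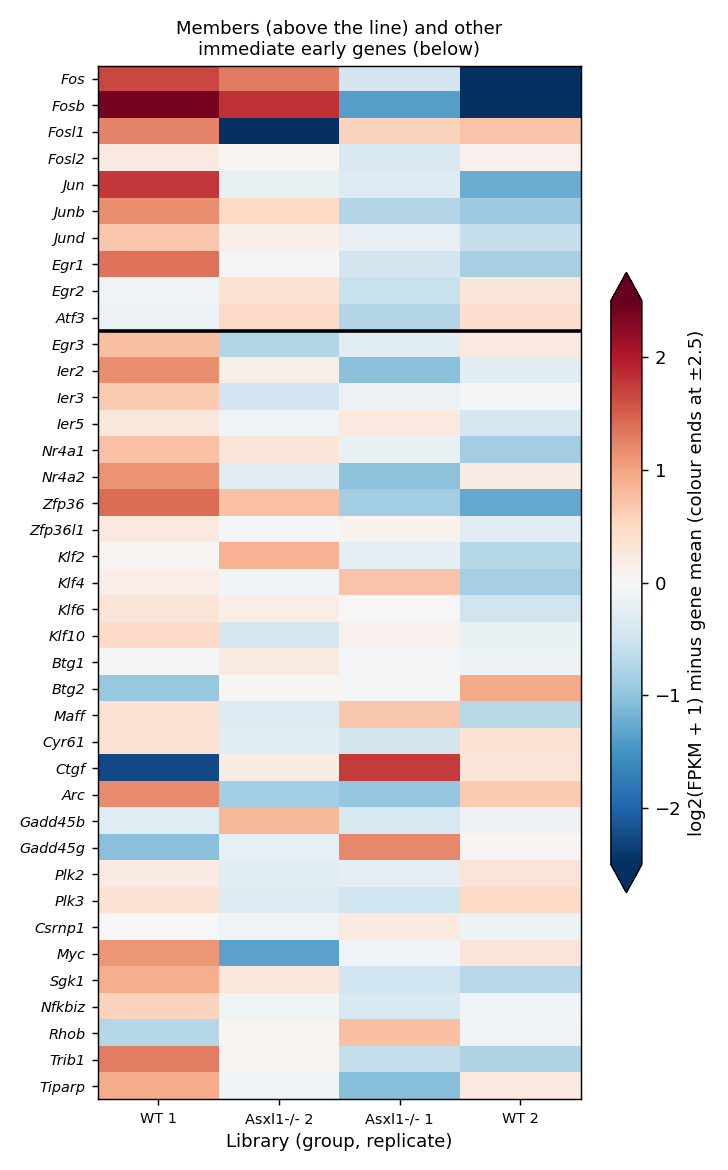
Level of each gene as log2(FPKM + 1) minus its mean over the 4 libraries, for the 10 members (above the line) and 29 other immediate early genes (below), with libraries from left to right in the order shared by 6 members; colours end at 2.5 either side of 0. Fos, Fosb, Jun, Junb and Zfp36 run from red on the left to blue on the right, while Arc and Egr3 are red in the outer, WT columns.

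The genes upstream of the members spread less within genotype than the members. Their median residual SD was 0.22 on the log2 scale, against 1.16 for the members and 0.296 for all genes tested. Of 20 MAP kinase, SRF and ternary complex factor genes, all tested by limma, 0 passed the adjusted threshold. An unadjusted p under 0.05 was reached by 1 on the higher and 0 on the lower side (beside 2.51% and 5.41% of all genes tested). Groups did not overlap for 7 on the lower side (35.0%, beside 25.2% of all genes) and for 1 on the higher side (beside 15.6%). The median log2 difference was -0.16, and 16 of the 20 differences were negative. Map2k2, an ERK-activating kinase, stood at 22.5 and 25.4 FPKM in WT and 35.0 and 40.3 in Asxl1-/- (limma adjusted p = 0.618). Rps6ka5 (MSK1), a kinase that phosphorylates CREB and histone H3 at early genes, stood at 2.81 and 2.29 FPKM versus 1.18 and 0.473. Rps6ka1 stood at 3.50 and 0.862 FPKM versus 0.506 and 0.588, and the JNK activator Map2k7 at 25.1 and 18.3 against 15.4 and 15.8. Srf itself was between 13.9 and 18.3 FPKM in the 4 libraries.

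Feedback genes were mixed as well. Of 13 genes that dampen MAP kinase or Egr activity 12 were tested, and by limma 0 passed. Spry1, a receptor tyrosine kinase antagonist, stood at 9.45 and 6.98 FPKM in Asxl1-/- cells, and at 4.55 and 2.84 in WT (log2 difference 0.99, adjusted p = 0.589). Dusp1 encodes a phosphatase of p38 and JNK and is itself an immediate early gene. It stood at 41.2 and 16.0 FPKM in WT and at 50.7 and 48.2 in Asxl1-/-. Dusp1 did not share the low value of Fos in Asxl1-/- replicate 1. Dusp5, an ERK phosphatase, stood at 20.3 and 7.29 FPKM in WT cells, and at 6.88 and 6.61 in Asxl1-/-. Spred1 stood at 16.9 and 17.7 FPKM in WT cells, and at 20.2 and 22.6 in Asxl1-/-.

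Partners of the members among other leucine zipper genes did not pass either, 0 of 11 tested by limma out of 14 listed, with a median log2 difference of -0.01. Maf stood at 30.0 and 8.54 FPKM in WT and 4.05 and 7.65 in Asxl1-/-, and Mafk at 8.59 and 4.48 against 8.61 and 11.3. Atf4, the factor of the integrated stress response, was the most abundant of those named here, at 200 and 156 FPKM in WT and 166 and 138 in Asxl1-/-. Jdp2, a repressor that pairs with Jun, stood at 30.6 and 30.4 FPKM versus 31.2 and 21.1.

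Among 20 genes known as AP-1 targets in other cells, 0 of 18 tested passed by limma. An unadjusted p under 0.05 was reached by 2, both lower in Asxl1-/- (11.1%, beside 5.41% of all genes tested), and the list median was -0.09. Plaur, the urokinase receptor, stood at 18.0 and 15.8 FPKM in WT and 7.47 and 4.62 in Asxl1-/- (log2 difference -1.37, adjusted p = 0.502). The gelatinase Mmp9 stood at 3.72 and 0.99 FPKM versus 0.0498 and 0.0805. Hbegf, an EGF receptor ligand, stood at 12.7 and 5.44 FPKM versus 3.88 and 4.37. The order of the 6 members was found in 1 of the 18 (5.56%, beside 4.89% of all genes tested).

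Heat shock genes, which respond to handling and protein damage, were followed as another stress readout. By limma 0 of 10 passed the adjusted threshold, with a median log2 difference of -0.01. Hspb1 (HSP27) had the smallest p of any gene in these lists, at 83.0 and 76.1 FPKM in Asxl1-/- cells, and at 9.49 and 8.90 in WT (log2 difference 2.98, standard error 0.22, adjusted p = 0.165). Hspa1b stood at 24.8 and 18.4 FPKM in WT and 24.0 and 46.5 in Asxl1-/-. The chaperone genes Dnajb1 and Hspd1 stood at 26.0 and 23.8 FPKM and at 369 and 226 in WT, against 18.4 and 21.6 and 217 and 204 in Asxl1-/-. Of the 10, 2 had the order of the 6 members (20.0%, beside 4.89% of all genes tested).

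Fosb had the widest range of the 10, 5.25 on the log2(FPKM + 1) scale. Of 5818 other genes whose mean reached 10 FPKM, those most like it over the 4 libraries by Pearson's r were Stx6 (0.999), Maz (0.999), Steap3 (0.999), Tmem60 (0.999) and Fam168b (0.999). They moved much less: Maz stood at 35.8 and 17.0 FPKM in WT and 21.4 and 32.6 in Asxl1-/-. An r of at least 0.95 was reached by 161 genes (2.77%). For the 6 other members whose mean reached 10 FPKM, r was 0.977 for Fos, 0.969 for Junb, 0.941 for Jund, 0.849 for Egr1, 0.822 for Jun and 0.411 for Fosl2. These values describe 4 libraries and share their depth.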

How the data were processed

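TopHat2 (version 2.0.3), Cufflinks (version 2.2.1), Cuffdiff and the build mm10 are named in the submitters' processing notes. Annotation, library kit and strandedness are not stated there. The deposited table holds FPKM per library as Cufflinks gives them, in 24487 rows. For symbols with several rows (260) the row with the highest mean was kept, and starts were given with 1 added. A further 2 columns match no sample and were not used. The authors' deposited Cuffdiff table gives group FPKM, a log2 fold change, a p-value and a q-value. A log-scale copy of the FPKM was not used.

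Groups came from the genotype label and replicate numbers from accession order, so they pair no samples. Genes whose mean reached 1 FPKM entered limma 3.58.1 (R 4.3.3; lmFit and eBayes, variance trend) on log2(FPKM + 1), a scale that understates changes of low genes. P-values were Benjamini-Hochberg adjusted over 11481 genes at 0.05. The fit was tested on simulated data, where it called most of the very large changes and none of the 4-fold ones. Positions were compared with GENCODE M21. Tables and figures used Python 3.11.15 with matplotlib 3.10.9, numpy 2.4.6 and pandas 2.3.3. All 10 members were named, from each list the 4 tested genes with the smallest p, and the 5 genes most like the member with the widest range. Alternatives were other pseudocounts (0.1, 0.5), other filters (none, a mean of 5 FPKM), quantile normalization or median ratio scaling, eBayes robust or without trend, no rows under 300 bp and each library left out. The alternatives for the order of libraries and the motifs were chosen after seeing the data. Members and lists were chosen with earlier results of these data known. A gene that the rule for named genes takes is not reported here.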

Additional observations from a re-analysis of the deposited data

How the results depend on the processing

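No paired analysis was possible because the labels give no replicate numbers shared by the groups. Of 88 member differences recomputed under 9 alternatives with all 4 libraries, 87 kept their sign and 1 did not: Jund stood at 0.0202 after median ratio scaling. None of the 10 members passed the adjusted threshold under any of these alternatives or with any library left out, the smallest limma adjusted p being 0.417. Leaving out a library, which leaves 1 library in a group that is then assumed to vary like the others, changed the sign in 14 of 40 fits. The log2 difference then ran from -1.26 to 2.95 for Fos, -2.16 to 3.09 for Fosb, -2.01 to 0.99 for Jun, -1.28 to 0.79 for Junb, -0.70 to 0.56 for Jund, -1.61 to 0.58 for Egr1, -0.65 to 0.25 for Egr2 and -0.88 to 0.33 for Atf3. It stayed negative for Fosl1 (-3.49 to -0.42) and Fosl2 (-0.54 to -0.12). With a library left out, members without overlap numbered 2 to 8 on the lower and 0 to 6 on the higher side. The difference in the share of Fos in its family, 20.4 percentage points, then ran from -3.56 to 44.4, and that of Jun, -4.53, from -13.0 to 3.90. Over all genes, limma called 0 higher and 3 lower. It called 1 lower with no filter and 0 without rows under 300 bp, and with a library left out 0 to 4 higher and 1 to 6 lower. Genes with an unadjusted p under 0.05 numbered 588 to 1353 in those fits, against 909. Of these 909, 31.7% were higher in Asxl1-/-, against 42.9% with quantile normalization and 43.3% with median ratio scaling. The read number is unknown, and 2 libraries per group limit every comparison.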
